A study of Saccharomyces cerevisiae with 15 samples.

Results

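The spliceosome protein genes of budding yeast (Saccharomyces cerevisiae) are described here over 15 RNA libraries from 11 genotypes. The 53 genes were chosen by their systematic names from the 6662 entries of the deposited table, whatever their values: 10 encode proteins of the U1 snRNP, 10 of the U2 snRNP, 6 of the U5 snRNP, 6 of the U4/U6 particle and the tri-snRNP, 14 of the Prp19 complex and its partners, and 7 splice site or second-step factors. All 53 were found, and all 53 passed the filter on low values, which asks for a mean over the libraries of 1 RPKM or more. RPKM is a read number divided by gene length and library size.

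All strains were haploids of the BY4741/2 background that lacked histidine, leucine and uracil synthesis, grown to the middle of logarithmic growth in rich glucose medium. RNA was taken with hot phenol, treated with DNase and depleted of ribosomal RNA. There were 2 libraries each of the wild type (libraries 1 and 3), the upf1 deletion, the xrn1 deletion and the htz1 deletion. The swr1 deletion, the double deletions swr1 xrn1, swr1 upf1, htz1 upf1 and htz1 xrn1, the prp43 DAmP allele and prp43 DAmP with the htz1 deletion had 1 library each. The series asks what the histone variant H2A.Z does for splicing. HTZ1 encodes H2A.Z, SWR1 the remodeller that puts it into chromatin, XRN1 the main cytoplasmic exonuclease that digests decapped RNA from its front end, and UPF1 (NAM7 in the deposited table) the central helicase of the nonsense-mediated decay pathway. PRP43 encodes the helicase that takes the spliceosome apart, and a DAmP allele is built to lower the mRNA of its gene. Nothing in the labels ties a replicate to a separate culture, so the p-values measure no more than the spread between these libraries.

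The spliceosome removes introns. The U1 snRNP pairs with the intron's front end and the U2 snRNP with the branch point, the tri-snRNP of U4, U6 and U5 then joins, U1 and U4 leave, and the Prp19 complex holds the rearranged RNA in place while second-step factors help join the exons. Few yeast genes have introns, so most mRNAs for spliceosome proteins are made without the machinery they encode. Nonsense-mediated decay removes RNAs on which ribosomes stop early, for example after starting at an upstream ATG or passing over the proper start.

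The table implied library totals of 7159937 reads (swr1 upf1) to 57373523 reads (prp43 DAmP), and the members had between 63 reads (RDS3, in swr1 upf1) and 36975 reads (SUB2). Every deleted gene was at most 0.290 RPKM in the libraries labelled with its deletion, and PRP43 stood at 42.7 and 55.4 RPKM in the DAmP libraries against 84.8 to 157 RPKM in the wild-type and htz1 libraries. Libraries also differed in ways the genotype labels do not give. Reading frames in ribosomal DNA (rDNA) took 12.1 to 21.2% of the summed RPKM in 5 libraries (htz1 1, swr1, swr1 xrn1, htz1 upf1 and swr1 upf1) and 0.0187 to 3.41% in the other 10. The 3 swr1 libraries and wild type 1 had 1968 to 2942 RPKM of MF(ALPHA)1, the alpha-factor gene of MATalpha cells, and the others at most 4.72 RPKM. MET17, a methionine synthesis gene, stood at 131 to 260.2 RPKM in 8 libraries and at most 0.361 RPKM in the other 7 (htz1 2, xrn1 1, swr1 xrn1, htz1 upf1, swr1 upf1 and both DAmP libraries). LYS2, a lysine synthesis gene, stood at 43.5 to 84.5 RPKM in 5 of those 7 (htz1 2, xrn1 1, htz1 upf1 and both DAmP libraries) and at most 0.298 RPKM elsewhere. The libraries of the wild type thus differ in mating-type RNA, and those of htz1 and of xrn1 in MET17 and LYS2. The part of these differences in the results was not tested. No member overlaps another gene of the R64 annotation, but neither the counting program nor its use of strand is given in the sources used here. RPKM is a share of each library, so a higher level of one RNA and a lower level of the rest cannot be told apart, nor can a change in every cell and one in some of the cells.

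Spliceosome protein genes were expressed at rather even levels, with a median below that of all genes. On the RPKM scale, which is per length, the median of the members' means over 15 libraries was 32.6 RPKM, against 42.2 RPKM for the 6495 genes that passed the filter. Of the 53 members, 49 had a mean under 50 RPKM. MSL5, the highest of those 49 (49.3 RPKM), lay above 58.2% of all 6659 distinct entries. The exceptions over 50 RPKM were SNU13 (465 RPKM) and SUB2 (462 RPKM), far above PRP8 (54.5 RPKM) and BUD31 (53.1 RPKM). Both proteins also work outside the spliceosome: Snu13 is also a core protein of box C/D snoRNPs, and the helicase Sub2 also acts in mRNA export. The lowest mean belonged to PRP31 (15.4 RPKM), a protein of the U4/U6 particle. Within subcomplexes the means ran from 25.9 (SNU56) to 43.5 RPKM (NAM8) in the U1 snRNP and from 21.6 (PRP9) to 38.5 RPKM (HSH49) in the U2 snRNP. They ran from 26.4 (PRP28) to 54.5 RPKM (PRP8) in the U5 snRNP and from 20.3 (CEF1) to 53.1 RPKM (BUD31) in the Prp19 complex.

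**Figure D1:**
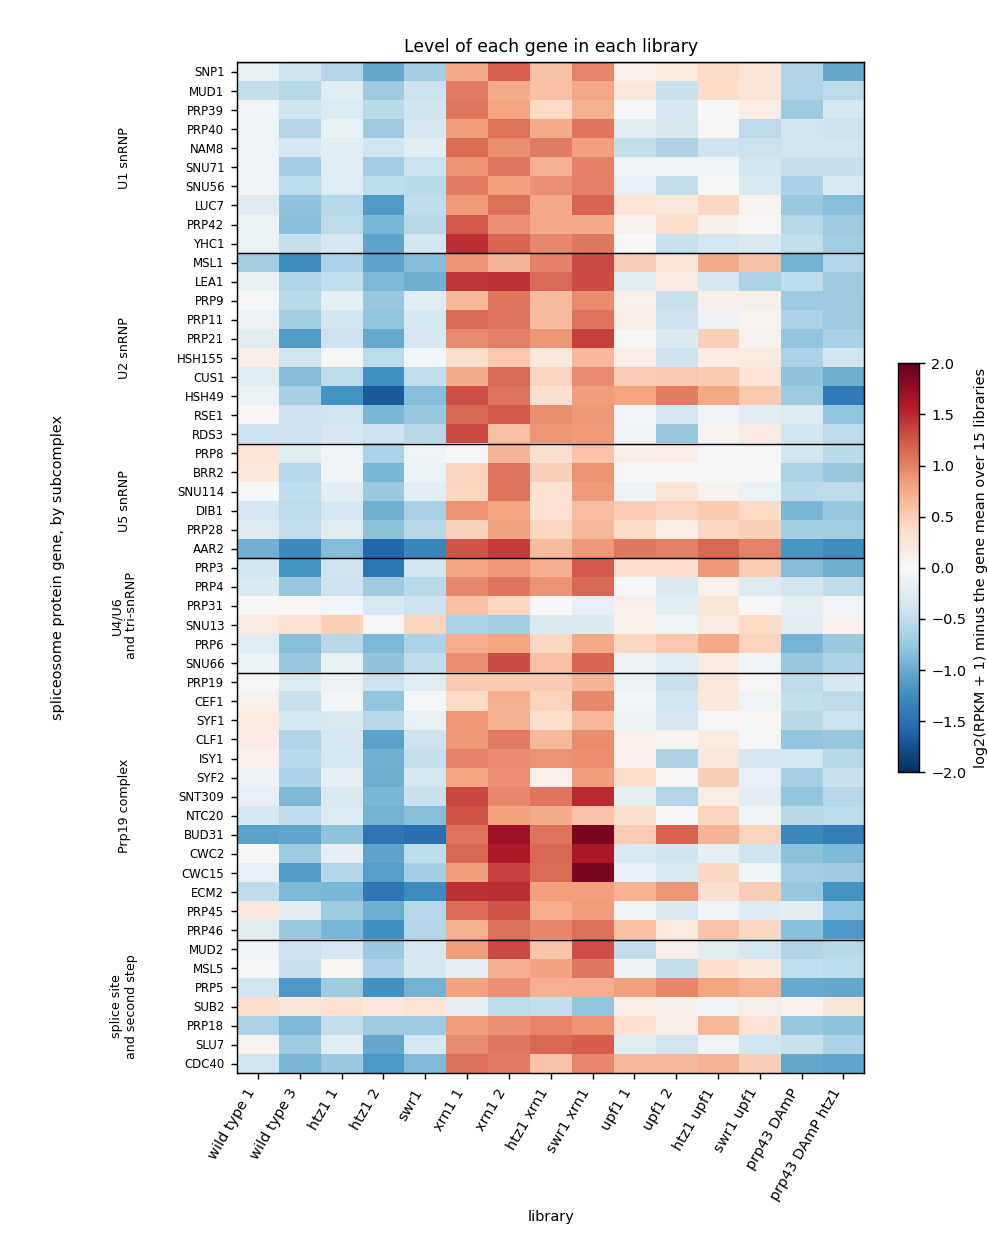
Level of the 53 spliceosome protein genes (rows, by subcomplex) in the 15 libraries (columns), drawn as log2(RPKM + 1) minus the mean of the gene over all 15 libraries, with red above and blue below the mean. The 4 xrn1 columns are red for most genes, SNU13 and SUB2 are blue in all 4 of them, and the 4 upf1 columns are red for a subset such as AAR2, PRP5 and HSH49.

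The members differed in how much they varied. The SD over 15 libraries of log2(RPKM + 1) was largest for BUD31 (1.25), AAR2 (1.18), ECM2 (1.03) and HSH49 (1.00), followed by CWC15, CWC2, PRP5, CDC40, LEA1 and MSL1 at 0.88 to 0.92. It was smallest for PRP31 at 0.26. BUD31 ranged from 12.6 RPKM in swr1 to 143 RPKM in swr1 xrn1, and PRP31 from 11.1 RPKM in swr1 to 23.2 RPKM in xrn1 1.

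Without XRN1, 50 of the 53 members rose, 2 fell and 1 did not pass the test, in a comparison where most genes were called: 74.1% of all 6495 genes rose and 7.19% fell. The question here was which RNAs accumulate when decapped RNA is not digested. The 4 libraries without XRN1 were compared with the 5 that have both XRN1 and UPF1 (wild type 1 and 3, htz1 1 and 2, and swr1, below called the reference libraries), with H2A.Z state as a term. The test was limma on log2(RPKM + 1) with Benjamini-Hochberg adjustment over all 6495 genes, a gene is called, and said to rise or fall, when its adjusted p is below 0.05. The value behind ± is the standard error of the change. The median change was 1.36 for the members and 0.99 for all genes on the log2 scale, and 42 members lay above the median of all genes. For 48 members every xrn1 library lay above every reference library, as for 63.2% of all genes, and for SNU13 and SUB2 every one lay below, as for 5.14%. With each library scaled to the same median, which brings the median of all genes to 0.093, the members split into 37 higher, 5 lower (SUB2, SNU13, PRP31, PRP8 and HSH155) and 11 not passed, and all tested genes into 2189 higher and 1814 lower. Changes are therefore also given relative to the median of all genes. Positions below are those of the genes in the R64 annotation, and all members but MUD1 have 1 exon there.

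Without UPF1, 19 of the 53 members rose (35.8%), none fell and 34 did not pass, against 28.8% of all genes that rose and 0.847% that fell. This comparison asks which RNAs nonsense-mediated decay limits, and it set 4 upf1 libraries against the same 5 reference libraries. The largest rises were in AAR2, BUD31, PRP5, HSH49 and ECM2, followed by MSL1, CDC40, PRP3, PRP6 and PRP46. The remaining rises were in CUS1, PRP18, DIB1, LUC7, PRP28, SNP1, NTC20, PRP42 and MUD1. They were spread over the subcomplexes: 4 of 10 in U1, 3 of 10 in U2, 3 of 6 in U5, 2 of 6 in the tri-snRNP, 4 of 14 in the Prp19 complex and 3 of 7 among splice site and second-step factors. The median change was 0.35 for the members and 0.23 for all genes on the log2 scale. For 18 members every upf1 library lay above every reference library, as for 26.2% of all genes, and for NAM8 and SUB2 every one lay below, as for 1.2%. With each library scaled to the same median, which brings the median of all genes to -0.10, the members split into 18 higher, 3 lower (NAM8, SNU13 and SUB2) and 32 not passed, and all tested genes into 1403 higher and 1180 lower. Of the 19 calls, 13 held whichever library was left out. Without the rDNA-rich libraries of this comparison (htz1 1, swr1, htz1 upf1 and swr1 upf1) 12 members were called. That fit held only wild type 1 and 3, htz1 2, and upf1 1 and 2, and the count over all genes also fell, from 1926 to 973.

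**Figure D2:**
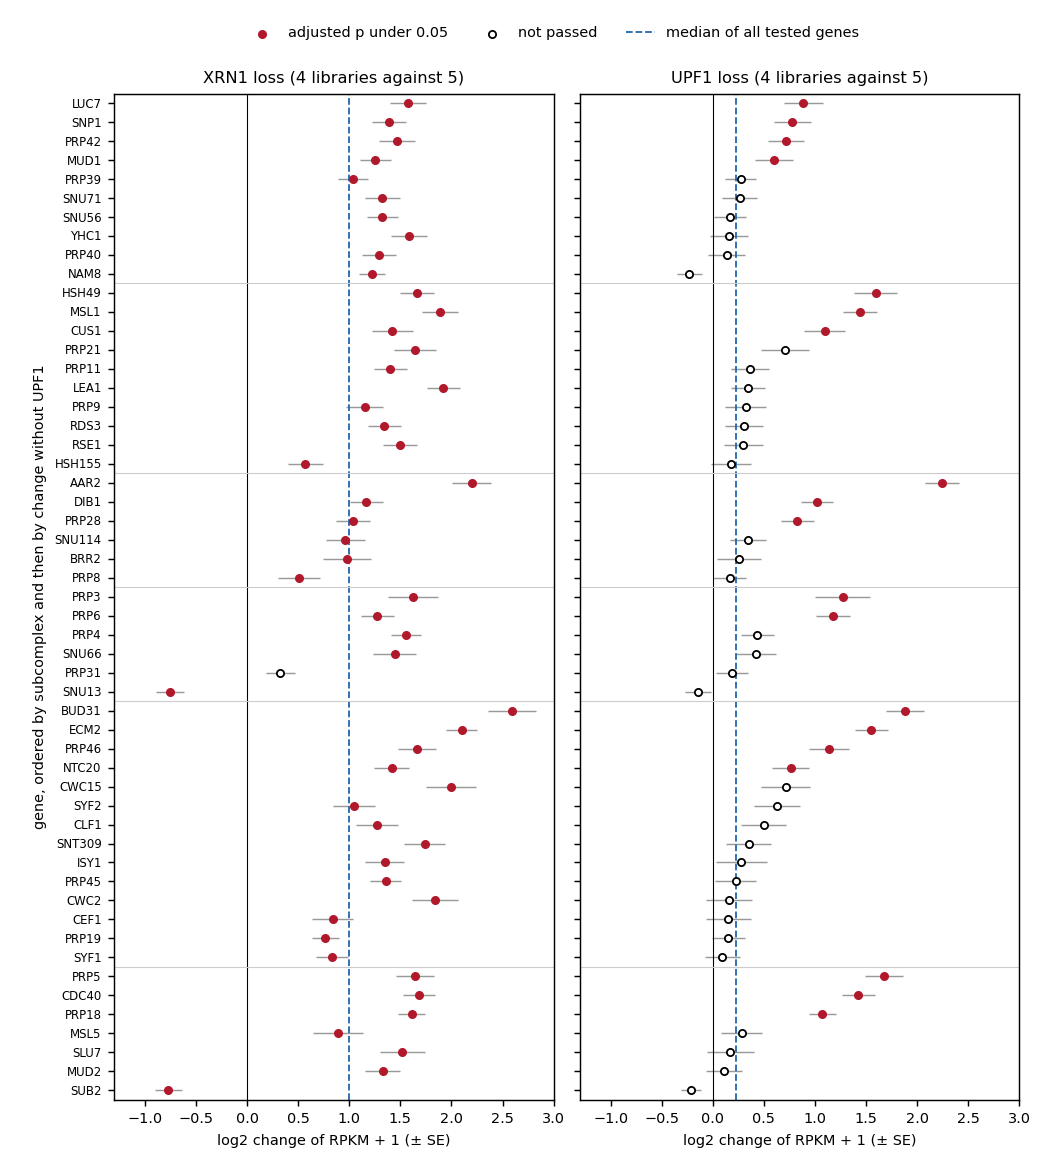
Change of log2(RPKM + 1) without XRN1 (left) and without UPF1 (right) for each member, with standard errors as bars, genes ordered by subcomplex and then by the change without UPF1. Filled points have an adjusted p under 0.05 by limma and the dashed line is the median of all tested genes (0.99 without XRN1, 0.23 without UPF1). On the left 42 of the 53 points lie right of that line, and on the right the 19 filled points stand clear of it.

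The change without XRN1 and that without UPF1 share their 5 reference libraries, so the direct comparison of the 4 xrn1 with the 4 upf1 libraries was used for differences between them. There 38 members were higher without XRN1, 2 were lower (SNU13 and SUB2) and 13 did not pass, against 53.2% of all genes higher and 8.62% lower. The median difference was 0.72 for the members and 0.51 for all genes on the log2 scale. This split depends on scaling: with each library scaled to the same median it was 17 higher, 9 lower (AAR2, CDC40, DIB1, HSH49, PRP28, PRP5, PRP6, SNU13 and SUB2) and 27 not passed, and over all tested genes 1476 higher and 1914 lower. The subcomplexes differed in their counts. All 10 U1 genes and 13 of 14 Prp19 complex genes were higher without XRN1 than without UPF1, compared with 7 of 10 in U2, 2 of 6 in U5, 2 of 6 in the tri-snRNP and 4 of 7 among splice site and second-step factors. After scaling, 5 of 10 U1 genes and 5 of 14 Prp19 complex genes were higher and none was lower. The higher and lower counts were then 3 and 1 in U2, 0 and 3 in U5, and 2 and 2 in the tri-snRNP. They were 2 and 3 among splice site and second-step factors. Whether subcomplexes differ from each other was not tested.

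The U1 snRNP recognises the front end of the intron. Its 10 genes all rose without XRN1, by 1.04 (PRP39) to 1.59 (YHC1) on the log2 scale, and 4 rose without UPF1. YHC1 (YLR298C, chromosome XII, 724721 to 725416, minus strand) encodes a zinc-finger U1 protein that steadies the pairing of U1 with the intron. It stood at 28.96, 23.1, 25.1, 14.9 and 24.4 RPKM in the reference libraries in the order given above, at 90.8, 73.04, 63.1 and 67.4 RPKM in xrn1 1, xrn1 2, htz1 xrn1 and swr1 xrn1, and at 32.3, 23.3, 24.9 and 25.7 RPKM in upf1 1, upf1 2, htz1 upf1 and swr1 upf1. The xrn1 libraries were all well above both other groups, which overlapped each other. YHC1 changed by 1.59 ± 0.18 without XRN1 (adjusted p = 3.14e-05 by limma, 0.59 above the median of all genes) and by 0.16 ± 0.19 without UPF1 (adjusted p = 0.576).

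NAM8 (YHR086W, chromosome VIII, 278153 to 279724, plus strand), an RNA-binding protein that helps U1 on weak introns and in meiosis, was highest without XRN1 and lowest without UPF1. Its levels were 36.8, 30.9, 33.8, 30.2 and 33.9 RPKM in the reference libraries, 86.2, 75.7, 81.9 and 70.5 RPKM without XRN1 and 28.1, 25.5, 29.7 and 29.1 RPKM without UPF1. The 3 groups did not overlap, but the highest upf1 library (29.7 RPKM) lay close to the lowest reference library (30.2 RPKM). NAM8 rose by 1.22 ± 0.13 without XRN1 (adjusted p = 2.31e-05 by limma). Its value without UPF1 was -0.23 ± 0.12 and did not pass (adjusted p = 0.203), but passed after scaling to the same median, at -0.57 (adjusted p = 0.00116). In the direct comparison NAM8 was 1.45 ± 0.12 higher without XRN1 (adjusted p = 7.51e-05), the smallest adjusted p of the U1 genes.

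The U1 genes raised without UPF1 were LUC7 (0.89 ± 0.19, adjusted p = 0.00666 by limma), SNP1 (0.78 ± 0.18), PRP42 (0.72 ± 0.18) and MUD1 (0.60 ± 0.18). LUC7 (YDL087C, chromosome IV, 300214 to 300999, minus strand) helps select the front splice site, SNP1 encodes the U1-70K protein, PRP42 a scaffold protein and MUD1 an RNA-binding U1 protein. LUC7 stood at 26.2, 17.7, 21.1, 13.8 and 21.8 RPKM in the reference libraries, 38.5, 37.03, 42.8 and 33.05 RPKM without UPF1 and 58.1, 69.2, 53.8 and 71.7 RPKM without XRN1. Its 3 groups did not overlap, with the upf1 libraries between the other two. SNP1 had 21.6, 18.1, 15.8, 11.3 and 14.5 RPKM in the reference libraries, 25.9, 27.8, 31.6 and 29.1 RPKM without UPF1 and 41.4, 56.3, 36.5 and 48.5 RPKM without XRN1, in the same order. The calls of LUC7, SNP1 and PRP42 were lost when htz1 upf1 was left out, and those of LUC7, SNP1, PRP42 and MUD1 when the rDNA-rich libraries were.

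MUD1 is the only member with an annotated intron, so its own mRNA needs the spliceosome. The intron is shown because it carries all 3 splicing signals. It lies at chrII:479346-479434 on the plus strand of the R64 build (RefSeq genome), between exon 1 (479338 to 479345) and exon 2 (479435 to 480323), and is 89 bases long. Capitals mark the 5′ splice site GTATGT at position 1, the branch site TACTAAC at position 45 and the closing CAG. GTATGT and TACTAAC were searched as these letters on the coding strand, and CAG was read from the end of the intron.
MUD1 intron: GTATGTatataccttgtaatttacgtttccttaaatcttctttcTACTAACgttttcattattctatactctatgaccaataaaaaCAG
MUD1 (YBR119W, chromosome II, 479338 to 480323, plus strand) stood at 20.6, 19.3, 24.3, 17.02 and 21.2 RPKM in the reference libraries, 59.6, 49.2, 44.3 and 49.96 RPKM without XRN1 and 33.4, 20.96, 37.5 and 34.8 RPKM without UPF1. The xrn1 libraries were all above the rest, and the upf1 libraries overlapped the reference ones through upf1 2. Its change without UPF1 (0.60 ± 0.18, adjusted p = 0.0359) was the weakest of the 19 calls: it missed the threshold when wild type 3, swr1, upf1 1, htz1 upf1 or swr1 upf1 was left out, and after scaling (0.27). RPKM here was divided by the whole gene length, so these values do not separate MUD1 mRNA from its unspliced precursor.

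The U2 snRNP binds the branch point. All of its 10 genes rose without XRN1, by 0.57 (HSH155) to 1.92 (LEA1), and 3 rose without UPF1. LEA1 and MSL1 encode the pair of proteins that bind the U2 RNA as a heterodimer. LEA1 (YPL213W, chromosome XVI, 150614 to 151330, plus strand) stood at 19.9, 14.3, 15.5, 11.4 and 10.7 RPKM in the reference libraries, 61.1, 61.96, 49.3 and 56.2 RPKM without XRN1 and 18.8, 25.2, 17.2 and 13.8 RPKM without UPF1. The xrn1 libraries stood apart, and the upf1 libraries overlapped the reference ones. LEA1 changed by 1.92 ± 0.16 without XRN1 (adjusted p = 1.05e-05 by limma) and by 0.35 ± 0.17 without UPF1 (adjusted p = 0.158).

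Its partner MSL1 (YIR009W, chromosome IX, 374525 to 374860, plus strand) stood at 15.3, 10.1, 16.1, 11.7 and 13.3 RPKM in the reference libraries, 48.2, 41.2, 52.1 and 64.6 RPKM without XRN1 and 35.9, 30.7, 42.9 and 38.7 RPKM without UPF1. Both mutant groups lay wholly above the reference libraries and overlapped each other. MSL1 rose by 1.89 ± 0.17 without XRN1 and by 1.44 ± 0.17 without UPF1 (adjusted p = 2e-04 by limma). The direct difference between xrn1 and upf1 was 1.58 ± 0.15 for LEA1 (adjusted p = 9.98e-05) and 0.46 ± 0.13 for MSL1 (adjusted p = 0.0171). The MSL1 difference turned to -0.14 after scaling. Whether the partners differ from each other was not tested.

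Among the members, HSH49, CUS1, RSE1, RDS3 and HSH155 encode SF3b proteins, and PRP9, PRP11 and PRP21 the SF3a proteins. SF3a and SF3b clamp U2 onto the branch point. HSH49 (YOR319W, chromosome XV, 912822 to 913463, plus strand) had the largest U2 rise without UPF1. It stood at 28.6, 19.3, 13.1, 9.08 and 16.9 RPKM in the reference libraries, 77.96, 67.7, 39.4 and 56.3 RPKM without XRN1 and 54.97, 64.8, 53.6 and 45.5 RPKM without UPF1. Both mutant groups exceeded all reference libraries, and the lowest value of the xrn1 group was that of htz1 xrn1. HSH49 rose by 1.66 ± 0.17 without XRN1 and by 1.60 ± 0.21 without UPF1 (adjusted p = 0.000431 by limma, 1.36 above the median of all genes), with a direct difference of 0.11 ± 0.16 (adjusted p = 0.594). CUS1, its binding partner, rose by 1.10 ± 0.20 without UPF1 (adjusted p = 0.00283). It stood at 17.2, 10.8, 13.9, 8.31 and 14.3 RPKM in the reference libraries, 29.5, 30.1, 29.8 and 25.03 RPKM without UPF1 and 34.9, 46.00, 28.3 and 40.2 RPKM without XRN1.

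The other SF3 genes among the 53 members did not pass without UPF1, at 0.18 (HSH155) to 0.71 (PRP21, adjusted p = 0.0529 by limma). HSH155 (YMR288W, chromosome XIII, 845571 to 848486, plus strand), the large repeat protein at the centre of SF3b, had the smallest U2 rise without XRN1. It stood at 24.3, 16.9, 22.6, 15.3 and 21.5 RPKM in the reference libraries, 28.9, 32.9, 26.01 and 35.4 RPKM without XRN1 and 24.7, 16.4, 25.01 and 25.6 RPKM without UPF1. The xrn1 libraries were above the reference ones by a narrow margin. Its rise of 0.57 ± 0.17 (adjusted p = 0.0107) was 0.43 below the median of all genes, and turned to a fall of -0.35 after scaling.

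The U5 snRNP holds the catalytic core. All 6 of its genes rose without XRN1, by 0.51 (PRP8) to 2.20 (AAR2), and AAR2, DIB1 and PRP28 rose without UPF1. AAR2 (YBL074C, chromosome II, 86722 to 87789, minus strand) is an assembly factor that binds Prp8 before the mature U5 particle forms. It stood at 13.7, 10.8, 14.7, 8.67 and 10.6 RPKM in the reference libraries, 67.3, 74.2, 43.4 and 51.3 RPKM without XRN1 and 58.5, 56.4, 62.5 and 55.7 RPKM without UPF1. The lowest mutant library had more than the highest reference library by a wide margin, and the upf1 libraries lay within the range of the xrn1 libraries. AAR2 rose by 2.20 ± 0.19 without XRN1 (adjusted p = 1.06e-05) and by 2.25 ± 0.17 without UPF1 (adjusted p = 2.44e-05 by limma). The rise without UPF1 was the largest of the 53 members and exceeded that of 97.9% of all genes. The direct difference was -0.011 ± 0.16 (adjusted p = 0.958), and -0.61 (adjusted p = 0.00767) after scaling.

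**Figure D3:**
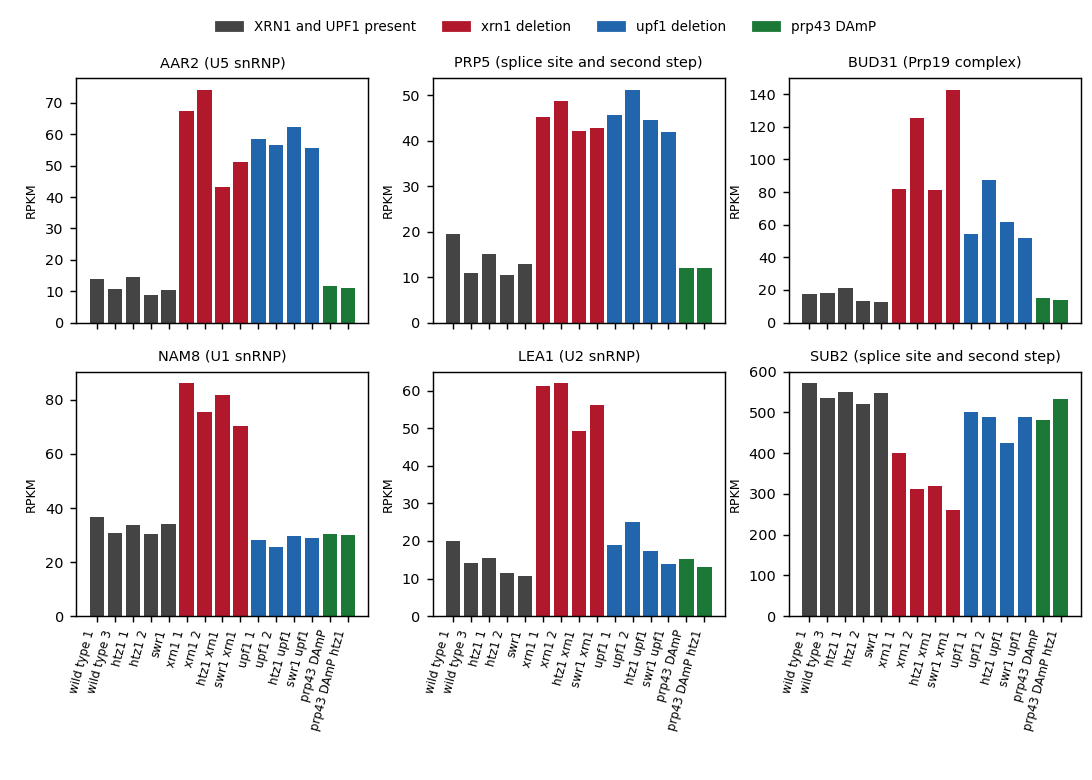
RPKM of 6 members in each of the 15 libraries (bars from 0, 1 bar a library), coloured by whether the strain lacks XRN1, lacks UPF1 or carries prp43 DAmP. AAR2, PRP5 and BUD31 are high in both the xrn1 and the upf1 libraries, NAM8 and LEA1 in the xrn1 libraries, and SUB2 is lowest in the xrn1 libraries.

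DIB1 (YPR082C, chromosome XVI, 704225 to 704656, minus strand) encodes a small protein that sits near the 5′ splice site in the tri-snRNP, and PRP28 the helicase that swaps U1 for U6 there. DIB1 stood at 34.1, 29.9, 34.2, 21.8 and 27.2 RPKM in the reference libraries, 81.5, 75.9, 53.1 and 66.7 RPKM without XRN1 and 62.01, 59.5, 62.3 and 57.5 RPKM without UPF1. Its rise was 1.17 ± 0.16 without XRN1 and 1.02 ± 0.15 without UPF1 (adjusted p = 0.00088 by limma). PRP28 stood at 20.2, 17.3, 20.8, 13.6 and 16.5 RPKM in the reference libraries, 34.2, 43.6, 33.4 and 39.5 RPKM without XRN1 and 32.3, 27.5, 33.3 and 34.8 RPKM without UPF1. For both genes each mutant group exceeded every reference library and the 2 mutant groups overlapped. PRP28 rose by 1.04 ± 0.16 without XRN1 and by 0.83 ± 0.16 without UPF1 (adjusted p = 0.00412).

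The large U5 proteins moved least. PRP8 (YHR165C, chromosome VIII, 429707 to 436948, minus strand), the scaffold at the heart of the spliceosome, stood at 63.6, 44.4, 49.6, 33.6 and 49.3 RPKM in the reference libraries, 51.3, 85.1, 66.4 and 78.8 RPKM without XRN1 and 57.3, 58.9, 51.2 and 51.1 RPKM without UPF1. All 3 groups overlapped, and xrn1 1 lay below wild type 1. PRP8 changed by 0.51 ± 0.20 without XRN1 (adjusted p = 0.0413 by limma), a call that was lost when wild type 3, htz1 2, swr1, xrn1 2, htz1 xrn1 or swr1 xrn1 was left out, in the fits with the rDNA share or the replicate number as a term and without the rDNA-rich libraries, and that turned to -0.43 after scaling. BRR2, the helicase that unwinds U4 from U6, rose by 0.97 ± 0.23 and SNU114, the GTPase beside it, by 0.96 ± 0.19, both close to the median of all genes. Neither passed without UPF1 (0.26 ± 0.22 and 0.35 ± 0.18).

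The tri-snRNP genes held one of the 2 falls without XRN1. SNU13 (YEL026W, chromosome V, 101943 to 102323, plus strand) binds the U4 RNA and box C/D snoRNAs. It stood at 518, 556, 630.3, 459 and 615 RPKM in the reference libraries, 292, 281, 369.5 and 370.1 RPKM without XRN1 and 485, 424, 510.1 and 597 RPKM without UPF1. Every xrn1 library was below every other library of the comparison, and the upf1 libraries overlapped the reference ones. SNU13 fell by 0.75 ± 0.14 without XRN1 (adjusted p = 0.000635 by limma), which is 1.75 below the median of all genes, and had -0.15 ± 0.13 without UPF1 (adjusted p = 0.45). The direct difference was -0.62 ± 0.12 (adjusted p = 0.00271).

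PRP3 and PRP6 were the tri-snRNP genes that rose without UPF1. PRP3 binds the paired U4 and U6 RNAs, and PRP6 bridges U5 to U4/U6. PRP6 (YBR055C, chromosome II, 344602 to 347301, minus strand) stood at 32.7, 21.3, 26.2, 20.4 and 24.7 RPKM in the reference libraries, 65.3, 67.6, 52.1 and 66.7 RPKM without XRN1 and 52.2, 56.9, 66.4 and 53.2 RPKM without UPF1. The mutant groups lay in the same range and above all reference libraries. PRP6 rose by 1.27 ± 0.16 without XRN1 and by 1.18 ± 0.17 without UPF1 (adjusted p = 0.000699 by limma). PRP3 rose by 1.62 ± 0.24 and 1.27 ± 0.27 (adjusted p = 0.00639), the latter call being lost without htz1 upf1 (1.04). PRP3 varied within the wild type, with 16.6 and 8.86 RPKM in libraries 1 and 3. The median of all members also differed there, at 26.2 and 17.7 RPKM.

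PRP4, the partner of Prp3, and SNU66, a bridging protein, rose without XRN1 by 1.55 ± 0.15 and 1.44 ± 0.21 and did not pass without UPF1 (0.44 ± 0.16 and 0.42 ± 0.19). PRP31 (YGR091W, chromosome VII, 666341 to 667825, plus strand), which binds the U4 RNA next to Snu13, was the flattest gene of the 53. It stood at 15.4, 15.5, 14.5, 12.02 and 11.1 RPKM in the reference libraries, 23.2, 20.4, 14.99 and 13.3 RPKM without XRN1 and 16.7, 12.9, 18.1 and 14.9 RPKM without UPF1. All groups overlapped. Its change without XRN1 was 0.33 ± 0.14 (adjusted p = 0.0599 by limma), which lies 0.67 below the median of all genes and passed as lower after scaling (-0.57, adjusted p = 0.00367).

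The Prp19 complex stabilises the catalytic spliceosome. All of its 14 genes rose without XRN1, by 0.77 (PRP19) to 2.59 (BUD31), and BUD31, ECM2, PRP46 and NTC20 rose without UPF1. BUD31, ECM2, CWC2 and CWC15 encode proteins that touch the RNA core of the activated spliceosome. BUD31 (YCR063W, chromosome III, 228318 to 228791, plus strand) stood at 17.6, 17.9, 21.3, 13.2 and 12.6 RPKM in the reference libraries, 81.6, 125, 81.2 and 143 RPKM without XRN1 and 54.2, 87.1, 61.6 and 51.9 RPKM without UPF1. Both mutant groups were far above the reference libraries, with swr1 xrn1 highest, and overlapped at upf1 2. BUD31 rose by 2.59 ± 0.23 without XRN1 (adjusted p = 1.21e-05 by limma, 1.60 above the median of all genes) and by 1.89 ± 0.19 without UPF1 (adjusted p = 8.68e-05). Its direct difference of 0.73 ± 0.24 (adjusted p = 0.0282) was lost without xrn1 2, swr1 xrn1, upf1 1 or swr1 upf1, with the rDNA share as a term, without the rDNA-rich libraries, and after scaling (0.13).

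ECM2 (YBR065C, chromosome II, 368584 to 369678, minus strand) stood at 21.7, 16.3, 16.2, 10.9 and 12.5 RPKM in the reference libraries, 88.3, 88.7, 56.2 and 56.2 RPKM without XRN1 and 51.4, 58.5, 39.5 and 44.3 RPKM without UPF1. Within each mutant group the 2 libraries with intact HTZ1 and SWR1 were the highest. ECM2 rose by 2.10 ± 0.16 without XRN1 (adjusted p = 6.36e-06 by limma) and by 1.55 ± 0.16 without UPF1 (adjusted p = 0.000101). PRP46, a WD-repeat protein, rose by 1.66 ± 0.18 and 1.14 ± 0.19, from 28.9, 20.02, 17.7, 14.1 and 22.5 RPKM in the reference libraries to 56.8, 74.5, 68.5 and 74.4 RPKM without XRN1 and 52.2, 39.1, 51.3 and 45.8 RPKM without UPF1. NTC20, a small subunit, rose by 1.41 ± 0.17 and 0.76 ± 0.18.

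CWC2 and CWC15 rose without XRN1 and did not pass without UPF1. CWC2 (YDL209C, chromosome IV, 86207 to 87226, minus strand), whose protein contacts the U6 RNA, stood at 19.2, 11.4, 16.7, 8.76 and 13.3 RPKM in the reference libraries, 44.1, 60.7, 43.9 and 61.5 RPKM without XRN1 and 15.5, 14.4, 16.9 and 14.4 RPKM without UPF1. The xrn1 libraries stood alone, and the upf1 libraries lay inside the reference range. CWC2 changed by 1.84 ± 0.23 without XRN1 (adjusted p = 5.9e-05 by limma) and by 0.16 ± 0.22 without UPF1 (adjusted p = 0.643), and its direct difference, 1.70 ± 0.16 (adjusted p = 0.000104), was the largest of the 53. CWC15 had 26.4, 13.1, 19.5, 13.4 and 18.3 RPKM in the reference libraries, 53.8, 78.3, 65.4 and 112 RPKM without XRN1 and 26.5, 23.8, 40.1 and 28.04 RPKM without UPF1. The highest CWC15 value was again that of swr1 xrn1. CWC15 rose by 1.99 ± 0.24 without XRN1, and its value without UPF1, 0.71 ± 0.24, just missed (adjusted p = 0.0551).

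The smallest rises in the complex without XRN1 were those of PRP19, SYF1 and CEF1. PRP19 (YLL036C, chromosome XII, 66745 to 68256, minus strand) itself, the ubiquitin ligase that names the complex, stood at 41.4, 34.7, 38.98, 31.3 and 35.5 RPKM in the reference libraries, 60.99, 61.1, 61.1 and 68.03 RPKM without XRN1 and 38.4, 30.9, 49.7 and 42.95 RPKM without UPF1. Its xrn1 libraries were all above the reference ones. PRP19, CEF1 and SYF1 rose without XRN1 by 0.77 ± 0.13, 0.84 ± 0.20 and 0.83 ± 0.15, less than the median of all genes, and their values after scaling were -0.17, -0.075 and -0.085. SNT309, which binds Prp19, rose by 1.74 ± 0.20 and its direct difference from upf1 was 1.42 ± 0.18 (adjusted p = 0.000293 by limma). PRP45, the Skip protein, rose by 1.36 ± 0.15 without XRN1 and had 0.22 ± 0.20 without UPF1 (adjusted p = 0.466).

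Among splice site and second-step factors, 6 of 7 rose without XRN1, SUB2 fell, and PRP5, CDC40 and PRP18 rose without UPF1. PRP5 (YBR237W, chromosome II, 691969 to 694518, plus strand) is the helicase that admits U2 to the branch point. It stood at 19.6, 10.9, 15.1, 10.4 and 12.8 RPKM in the reference libraries, 45.2, 48.7, 42.2 and 42.8 RPKM without XRN1 and 45.7, 51.2, 44.5 and 41.8 RPKM without UPF1. The 2 mutant groups had nearly the same range, wholly above the reference libraries. PRP5 rose by 1.64 ± 0.19 without XRN1 and by 1.68 ± 0.19 without UPF1 (adjusted p = 0.000174 by limma), and the direct difference was -0.032 ± 0.11 (adjusted p = 0.821), or -0.63 after scaling (adjusted p = 0.00269).

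CDC40 (also Prp17) and PRP18 act at the second step, when the exons are joined. CDC40 (YDR364C, chromosome IV, 1202843 to 1204210, minus strand) stood at 31.4, 21.3, 24.04, 17.96 and 21.8 RPKM in the reference libraries, 88.9, 84.3, 61.8 and 80.5 RPKM without XRN1 and 65.9, 65.1, 67.05 and 58.1 RPKM without UPF1. PRP18 stood at 15.8, 13.00, 17.8, 14.99 and 14.8 RPKM in the reference libraries, 45.5, 48.1, 50.2 and 47.6 RPKM without XRN1 and 30.7, 28.1, 40.3 and 30.5 RPKM without UPF1. For CDC40 the mutant groups overlapped, and for PRP18 the upf1 libraries lay between the other groups. CDC40 rose by 1.68 ± 0.16 and 1.43 ± 0.16 (adjusted p = 0.000162 without UPF1, by limma). PRP18 rose by 1.61 ± 0.13 and 1.07 ± 0.13 (adjusted p = 0.000304 without UPF1).

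SLU7, whose protein works with Prp18, did not pass without UPF1. It stood at 27.3, 15.6, 22.3, 12.3 and 20.2 RPKM in the reference libraries, 51.4, 55.1, 59.2 and 61.7 RPKM without XRN1 and 21.8, 19.98, 24.7 and 19.8 RPKM without UPF1, so that the upf1 libraries lay inside the reference range. SLU7 changed by 1.52 ± 0.22 without XRN1 and by 0.17 ± 0.23 without UPF1 (adjusted p = 0.636 by limma), with a direct difference of 1.36 ± 0.12 (adjusted p = 8.72e-05). The direct difference for PRP18 was 0.56 ± 0.12 (adjusted p = 0.00452), which turned to -0.038 after scaling. MSL5, which binds the branch point, and MUD2, its partner, rose without XRN1 by 0.89 ± 0.25 and 1.33 ± 0.17. MSL5 was uneven between the xrn1 replicates, at 40.4 and 76.8 RPKM, and its rise turned to -0.048 after scaling.

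SUB2 (YDL084W, chromosome IV, 305237 to 306577, plus strand), the helicase that clears the branch point for U2, was the other gene to fall. It stood at 571, 535, 550.4, 520.0 and 548 RPKM in the reference libraries, 399, 313, 319 and 259 RPKM without XRN1 and 500.4, 488, 426 and 489 RPKM without UPF1. The 3 groups did not overlap: the xrn1 libraries were lowest and the upf1 libraries lay in between. SUB2 fell by 0.77 ± 0.13 without XRN1 (adjusted p = 0.000403 by limma), and its value without UPF1, -0.21 ± 0.098, did not pass (adjusted p = 0.144). After scaling the UPF1 value passed, at -0.56 (adjusted p = 0.0151).

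Because nonsense-mediated decay acts on RNAs with early stops, the sequences around the annotated start codons were read from the R64 RefSeq genome. Shown are the 4 members with the largest rise without UPF1, then the 4 with the lowest values. Each runs 5′ to 3′ on the coding strand, from 12 bases before the start codon to 3 after it, and capitals mark the ATG and the base 3 before it (position -3), where an A is the usual base in yeast.
AAR2: cggaagcctGcaATGaat
BUD31: tcacaaaacGacATGccg
PRP5: tttatttgaGgtATGgaa
HSH49: agattaacaTtgATGaac
NAM8: ttgcgggtaCaaATGtcc
SUB2: aaaacagcaAcgATGtca
SNU13: actatattaAaaATGtct
SYF1: tccatatatCctATGtca
AAR2 was read from chrII:87784-87801 on the minus strand, and the others from the plus strand: BUD31 from chrIII:228306-228323, PRP5 from chrII:691957-691974, HSH49 from chrXV:912810-912827, NAM8 from chrVIII:278141-278158, SUB2 from chrIV:305225-305242, SNU13 from chrV:101931-101948 and SYF1 from chrIV:1298420-1298437. The 4 raised genes have G or T at -3, and of the other 4 SUB2 and SNU13 have A. Over all members an A at -3 was found in 7 of 19 raised without UPF1 (36.8%) and in 21 of the other 34 (61.8%), against 53.5% of 1685 raised genes and 63.4% of 4103 others among all tested genes with an R64 start. At least 1 ATG in the 100 bases before the start, on the coding strand and in any frame, was found in 12 of the 19 (63.2%) and 18 of the other 34 (52.9%), against 67.4% and 44.7% among all genes. AAR2 has 5 such ATGs and HSH49 3, BUD31 has 1 and PRP5 none. Where transcripts start was not measured, so these letters may lie outside the mRNA, and no test was made.

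Without HTZ1 no member passed the test, in a comparison that called 1.92% of all genes (29 of 6495 higher, or 0.446%, and 96 lower, or 1.48%). It asks whether the genes of the splicing machinery change when H2A.Z is absent, and set 5 libraries without HTZ1 against 7 with it, with background (wild type, xrn1, upf1, prp43 DAmP) as a term. By limma 4 members had an unadjusted p under 0.05, as had 1153 of all 6495 genes, and by voom on the recovered reads 1 member was called. The median change was -0.096 for the members and -0.022 for all genes on the log2 scale. Within backgrounds, the members' median was -0.20 in the wild type, -0.26 in xrn1, -0.016 in prp43 DAmP and 0.18 in upf1. The median RPKM of all 6495 genes was also higher in htz1 upf1 (42.9) than in upf1 1 and 2 (38.5 and 36.6). It was 34.8 and 26.3 in the wild type against 31.3 and 24.5 in htz1. In xrn1 it was 64.4 and 64.6 against 61.8 in htz1 xrn1, and in prp43 DAmP 27.8 against 27.0 with the htz1 deletion. The htz1 upf1 library, which gives the members' value in upf1, and htz1 1 are rich in rDNA sequence, and values without such libraries are given below for HSH49 and ECM2. With any 1 library left out the count over all genes fell to between 30 (without htz1 upf1) and 86, and 0 or 1 member was called.

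HSH49, the SF3b protein described above, had the lowest value without HTZ1. In the wild-type background it stood at 28.6 and 19.3 RPKM with HTZ1 and 13.1 and 9.08 RPKM without. In xrn1 cells it stood at 77.96 and 67.7 RPKM with and 39.4 RPKM without HTZ1, in upf1 cells at 54.97 and 64.8 against 53.6 RPKM, and in prp43 DAmP at 18.7 against 11.1 RPKM. In each background every library without HTZ1 lay below those with it, by a small margin in upf1. The averaged change was -0.73 ± 0.17 (adjusted p = 0.0516 by limma), and over the other fits tried the adjusted p ran from 0.0119 (each library scaled to the same median) to 0.17 (without htz1 xrn1). It passed after scaling, with the rDNA share as a term (-0.90, adjusted p = 0.0252) and without htz1 upf1 (-0.91, adjusted p = 0.0498), and did not pass without the rDNA-rich libraries (-0.97, adjusted p = 0.067).

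ECM2, of the Prp19 complex, stood at 21.7 and 16.3 RPKM in the wild type and 16.2 and 10.9 RPKM in htz1. It stood at 88.3 and 88.7 against 56.2 RPKM in xrn1, at 51.4 and 58.5 against 39.5 RPKM in upf1, and at 18.1 against 13.1 RPKM in prp43 DAmP. The deletion was again the lower side in every background, though htz1 1 and wild type 3 were nearly equal. The averaged change was -0.51 ± 0.13 (adjusted p = 0.0629 by limma), with an adjusted p from 0.0132 (scaled) to 0.215 (without htz1 xrn1) over the other fits tried, and it also passed with the rDNA share as a term (-0.61, adjusted p = 0.0307) and by voom (-0.53, adjusted p = 0.0478), and did not pass without the rDNA-rich libraries (-0.62, adjusted p = 0.118). PRP45 had -0.48 ± 0.16 (adjusted p = 0.151) and was lower in 3 of 4 backgrounds, from 32.1 and 23.5 RPKM in the wild type to 16.4 and 13.4 RPKM in htz1, with 25.97 and 22.1 against 26.1 RPKM in upf1. HSH49, ECM2 and PRP45 were picked for their low values. The share of all genes that were lower in every background was not counted.

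**Figure D4:**
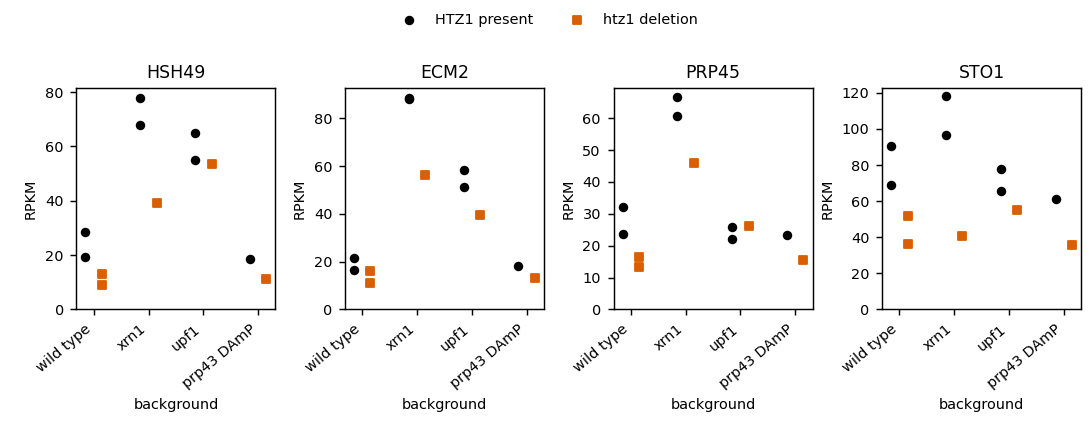
RPKM of HSH49, ECM2, PRP45 and STO1 in each library with HTZ1 (black circles) and without it (orange squares), by background. Each point is 1 library. For HSH49, ECM2 and STO1 the squares lie below the circles in all 4 backgrounds, and for PRP45 in all but upf1. The genes drawn were picked for their low values without HTZ1.

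The interactions, which ask whether a change differs between backgrounds, called no member by limma in any of 5 tests over all 15 libraries, where they called 0 genes of 6495 (4 tests) or 10 (0.154%, HTZ1 with PRP43). An unadjusted p under 0.05 was found for 1 member with HTZ1 and UPF1 (PRP45, a difference of 0.97 ± 0.39) and for none in the other 4. These tests rest mostly on single libraries, and a p that misses the threshold does not show that the changes are alike. The HTZ1 and UPF1 interaction of HSH49, for example, was 0.89 ± 0.43.

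Without SWR1 no member passed either, among 260 calls over all genes (4%). The 3 swr1 libraries were compared with 6 libraries that have SWR1, in the wild-type, xrn1 and upf1 backgrounds. By limma 5 members had an unadjusted p under 0.05, as had 1205 of all 6495 genes, and voom called none. The median change was -0.016 for the members and -0.078 for all genes. The count over all genes was 43 without swr1 xrn1, 79 without swr1 upf1, 82 without swr1, 108 and 150 without either xrn1 library and 153 without upf1 2, and no member was called in any of these. ECM2 was the member with the lowest value, -0.50 ± 0.14 (adjusted p = 0.0891), with 12.5 RPKM in swr1, 56.2 RPKM in swr1 xrn1 and 44.3 RPKM in swr1 upf1. In each of the 3 backgrounds that was below both libraries with SWR1, and the share of all genes with this order was not counted. HSH49 had -0.40 ± 0.15 (adjusted p = 0.2), LEA1 -0.45 ± 0.17 (adjusted p = 0.197) and SNU13 0.32 ± 0.12 (adjusted p = 0.191). The highest value was that of MSL5, 0.40 (adjusted p = 0.395). This comparison shares its 6 libraries with that of HTZ1. All 3 swr1 libraries are rich in rDNA sequence and none of the 6 others is, so loss of SWR1 and this property cannot be told apart. The 3 are also rich in MF(ALPHA)1 RNA, as is only wild type 1 among the 6, and the part of mating type was not tested.

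Lowered PRP43 was followed by no called change. The 2 DAmP libraries were compared with the wild-type and htz1 libraries (2 against 4). By limma none of 6495 genes passed (0%), 156 had an unadjusted p under 0.05, and voom called none. No member had an unadjusted p under 0.05. The median change was -0.14 for the members and -0.073 for all genes. The largest value of each subcomplex ran from -0.36 ± 0.32 for CWC2 and -0.36 ± 0.31 for BRR2 to -0.24 for CDC40. That of the U1 snRNP was -0.27 ± 0.22 for SNP1, and all had an adjusted p of 0.999. PRP43 itself changed by -1.35 ± 0.29 (adjusted p = 0.999), so this test of 2 libraries did not call the gene the allele is built to lower. The count over all genes was 138 without htz1 2, 20 without prp43 DAmP htz1 and 1 without htz1 1, and no member was called in any of these.

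Other splicing genes were described as a list of 42: Sm and LSm ring proteins, helicases and their partners, and a mixed group of other proteins. Without XRN1, 33 of the 42 rose, 1 fell and 8 did not pass, beside 74.1% of all genes that rose and 7.19% that fell, and their median change was 1.04 against 0.99 for all genes. Without UPF1, 19 rose, none fell and 23 did not pass, beside 28.8% of all genes that rose and 0.847% that fell, and their median was 0.50 against 0.23. By kind, 3 of the 14 Sm and LSm genes rose without UPF1, 4 of the 7 helicases and partners and 12 of the 21 other genes. Whether these kinds differ was not tested. LSM8, which makes the LSm ring of the U6 RNA nuclear, rose by 2.48 ± 0.15 without XRN1 (adjusted p = 3.69e-06 by limma) and had -0.16 ± 0.19 without UPF1. SPP2, the activator of the helicase Prp2, rose by 1.63 ± 0.21 without UPF1 and PRP2 by 1.07 ± 0.22. PML1 and BUD13, both of the retention and splicing complex that keeps unspliced RNA in the nucleus, rose by 1.52 ± 0.14 and 0.71 ± 0.13. NPL3, an abundant RNA-binding protein, fell by 0.94 ± 0.16 without XRN1 (adjusted p = 0.000355).

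In this list of 42, 1 gene passed without HTZ1, in a comparison that called 1.92% of all genes. STO1, the large subunit of the cap-binding complex, stood at 90.4 and 69.02 RPKM in the wild type and 51.7 and 36.4 RPKM in htz1. Over all backgrounds its 5 libraries without HTZ1 ran from 35.9 to 55.01 RPKM and its 7 libraries with HTZ1 from 60.96 to 118 RPKM, with no overlap, which held for 0.6% of all genes. STO1 fell by 0.84 ± 0.16 (adjusted p = 0.03 by limma). CBC2, its small partner in the cap-binding complex, had -0.13 ± 0.14 (adjusted p = 0.686). Without SWR1 the value of STO1 was -0.62 ± 0.18 (adjusted p = 0.0953). Values of STO1 from the other fits are not given here. With any 1 library left out, the count called without HTZ1 over all genes fell from 125 to between 30 and 86. STO1 has 2 exons in the R64 annotation, so its RPKM does not separate mRNA from unspliced precursor. None of the other 41 genes passed without HTZ1, and 10 of the 42 had an unadjusted p under 0.05, beside 1153 of all 6495 genes. The snRNAs are not analysed here.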

How the data were processed

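RNA of 15 libraries was compared as RPKM values from 1 table that the authors deposited. The submitters' processing notes name STAR 2.4.0, CASAVA and, as the genome build, sacCer3. How reads were counted, on which annotation and with which strand setting is not given in the sources used here. RPKM times the whole gene length gave whole reads, within 0.1 read, for 100% of values under 20 reads in each library (20% by chance), and thus the depth. Groups came from the sample titles. Not used were 1 column with no matching sample and 3 entries that share a name or have none (0.02025 to 0.12925% of the summed RPKM).

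The tests used limma 3.58.1 (R 4.3.3), with a trended empirical Bayes step, on log2(RPKM + 1), which understates changes of low genes, over the 6495 genes whose mean reached 1 RPKM, Benjamini-Hochberg adjusted. Each comparison averages over backgrounds given as a term, with only its own libraries in the fit. Interactions come from 1 mean per genotype over all 15 libraries. Where a genotype has 1 library, its spread is taken to be that of the others. The fits were tested on simulated data. The alternatives were other pseudocounts (0.1 and 5), other filters (none, or a mean of 10 RPKM), scaling that gives all libraries an equal median log ratio, the replicate number as a block, the rDNA share as a term, fits without rDNA-rich libraries (over 10% of summed RPKM) or without each library, and limma voom on recovered reads. Named are the highest and lowest members of each subcomplex, the 10 most variable and those called (up to 10 each way). Also named are the largest change of each subcomplex for XRN1 and UPF1 loss, and up to 6 called genes of the other splicing list. In the other comparisons only some of the largest changes are named. Further members were named after their values were seen. The members, lists and alternatives were chosen with earlier results of these data known.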

Additional observations from a re-analysis of the deposited data

How the results depend on the processing

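Over the alternatives, 2276 member changes were recomputed for 129 results, namely called changes and the largest change of each subcomplex in each comparison. Of the 2276, 2171 kept their direction and side of the threshold, 89 no longer passed, 6 newly passed and 10 turned sign. All 10 turned on scaling, which gave all libraries an equal median log ratio. Without XRN1 they were HSH155 (-0.35), PRP8 (-0.43), PRP19 (-0.17), CEF1 (-0.075), SYF1 (-0.085) and MSL5 (-0.048), and in the direct comparison of XRN1 and UPF1 loss MSL1 (-0.14), ECM2 (-0.055), PRP46 (-0.070) and PRP18 (-0.038). The same scaling gave 26 members called in the direct comparison in place of 40. Over all 53 members, called or not, it turned the sign of 7 changes without XRN1, 21 without UPF1 and 15 in the direct comparison. None of the 21 without UPF1 was a called change.

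For HTZ1 loss, in place of 125 genes and 0 members, scaling called 363 genes and 2 members, the rDNA share as a term 276 genes and 3 members, voom 1 member and the fit without rDNA-rich libraries 13 genes. For SWR1 loss the count of 260 genes became 105 with a mean of at least 10 RPKM and 1 with the rDNA term. For UPF1 loss, 973 genes and 12 members were called without rDNA-rich libraries, in place of 1926 and 19. For PRP43 lowering, in place of 0 genes, the rDNA term called 3 and the fit without rDNA-rich libraries 1. The cause of these moves was not tested.

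Leaving out each library in turn gave 30 to 86 genes and 0 to 1 members for HTZ1 loss, 43 to 282 and 0 for SWR1 loss, 4852 to 5305 and 51 to 53 for XRN1 loss, 1305 to 2229 and 13 to 25 for UPF1 loss, 0 to 138 and 0 for PRP43 lowering, and 3489 to 3893 and 34 to 44 in the direct comparison. Replicate numbers gave no clear pairing of the samples: deviations of same-numbered libraries correlated at 0.19 (xrn1 and upf1), -0.27 (xrn1 and htz1) and 0.13 (upf1 and htz1). The htz1 and xrn1 libraries also differ in MET17 and LYS2, and those of htz1 in rDNA share. The check therefore cannot tell whether same-numbered libraries shared a batch. The replicate block called 40 genes for HTZ1 loss and 2 for PRP43 lowering, and 51 members for XRN1 loss, 21 for UPF1 loss and 40 in the direct comparison. Most genotypes have 1 library, and the least deep has 7159937 reads, in which the members had 63 or more, so small changes of single genotypes were not detectable.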
